A study of Sus scrofa with 15 samples.

Results

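Testis RNA of 6 male piglets was compared here, 3 fed a cow's milk formula with added 17β-estradiol (M + E2) and 3 fed the same formula alone (Milk). These 6 libraries are the members, out of the 15 of the series, and were chosen by their labelled diet without use of any measured value. All piglets suckled for 2 days, then received their diet until postnatal day 21, when the testes were frozen. Estradiol (E2) was added at each feeding with the aim of a serum concentration between 15 and 30 pmol/L, a target and not a measured value. The mean serum estradiol that the paper measured lay above this range in both groups, and was far higher in M + E2 than in Milk. The other groups received sow milk (Sow), soy formula (Soy) or the cow's milk formula with genistein at 84 mg/L (M + G), an amount that the methods give for the diet and the labels for the serum. Piglets came from many litters born on 1 farm on the same day and were housed singly. The paper lists 6 piglets each for Milk and M + E2, and the series holds 3 libraries of each. Every library is taken here as 1 piglet, which the sources used here do not state.

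The testis before puberty holds immature Sertoli cells, which nurse the germ cells inside the tubules and secrete anti-Müllerian hormone. Leydig cells lie between the tubules and make steroids from cholesterol, in the pig both androgens and large amounts of estrogens. Estradiol acts through the nuclear receptors ESR1 and ESR2 in testis cells, and it also holds back the pituitary gonadotropins that drive Leydig cells.

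The deposited values are reads counted per gene, between 6097552 and 8364498 reads per library in these 6 libraries, and levels are given as CPM, reads scaled to library size and then by TMM, the trimmed mean of M values. At this depth 3 reads, the limit that a count of 0 allows, correspond to between 0.359 and 0.492 CPM before the TMM step, which covers counting error only. The comparison used the quasi-likelihood test of edgeR on the 15634 of 30476 genes that passed a filter on low counts, with p-values adjusted over all of them by the Benjamini-Hochberg method. A gene was called where its adjusted p did not exceed 0.05 and its levels differed at least 2-fold. Because testes were sequenced whole, fewer cells of a type and less RNA per cell cannot be told apart.

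The Milk libraries did not form a tight group. Milk 3 was nearer to the M + E2 libraries than to its own group, with a root mean square difference over genes of 0.485 to 0.564 on the log2 CPM scale from M + E2, against 0.749 from Milk 1 and 0.882 from Milk 2. The M + E2 libraries differed from each other by 0.485 to 0.505. Along the line from the mean of the other Milk libraries to the mean of M + E2, Milk 3 lay at 0.869 of the way, Milk 1 at 0.082 and Milk 2 at 0.00761. Milk 2 stood apart in another respect, with 4481 CPM summed over 12 peritubular myoid markers against 1541 in Milk 1 and 1315 in Milk 3. Results are therefore given with all libraries and, where it matters, without Milk 3. Leaving out the Milk library nearest to M + E2 widens the difference over all genes by construction, though not for every gene list. Calls made without Milk 3 are thus shown for their dependence on 1 library and not as added support.

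With all libraries the quasi-likelihood test called 0 of 15634 genes (0%), with a lowest adjusted p of 0.0711. At an unadjusted p under 0.05 it found 2772 genes (17.7%), 1130 of them higher in M + E2 (7.23%) and 1642 lower (10.5%). All 3 M + E2 libraries were above all 3 Milk libraries for 1373 genes (8.78%) and below them for 1374 genes (8.79%). By sign alone 47.6% of genes were higher and 52.4% lower, with a median log2 fold change of −0.03. The same Milk libraries gave 406 genes at an unadjusted p under 0.05 against M + G (2.60%) and 381 against Soy (2.44%). The exact test of edgeR on the 6 libraries, which was the authors' choice of test, called 92 of 14470 genes (0.636%), 48 higher (0.332%) and 44 lower (0.304%), and for 90 of these the groups did not overlap. The Wald test of DESeq2 called 122 genes (0.780%), of which 70 were also called by the exact test, or 76.1% of the exact calls and 57.4% of the DESeq2 calls. Without Milk 3 the quasi-likelihood test called 1256 of 15620 genes (8.04%), 741 higher (4.74%) and 515 lower (3.30%). In what follows a gene is described as called only with the test named, and every other difference is given by its values. A call by 1 test was not stable over settings: across 17 alternatives the adjusted p of LINGO1 ran from 5.55e-08 to 0.321, that of HPD from 6.48e-07 to 0.321, that of AMH from 0.00327 to 0.551, that of KIT from 0.0152 to 0.551 and that of STAR from 0.0112 to 0.551, while their log2 fold changes kept their sign in each.

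The clearest higher gene was LINGO1, at chr7:57684591-57890121 of Sscrofa11.1, which encodes a membrane protein known as a brake on axon growth and myelination. Its level was 13.9, 6.94 and 12.3 CPM in Milk and 48.3, 43.1 and 35.8 CPM in M + E2. Every M + E2 library was thus above every Milk library, and Milk 3 sat with the other Milk libraries. The log2 fold change was 1.94 ± 0.28 (SE), or 3.84-fold, with an adjusted p of 0.0711 by the quasi-likelihood test of edgeR and 1.33e-06 by its exact test. TVP23A, at chr3:32275481-32318598, encodes a Golgi membrane protein. It was at 4.12, 3.72 and 5.89 CPM in Milk and 24.0, 13.6 and 13.6 CPM in M + E2, again without overlap, and differed by 1.89 ± 0.28 on the log2 scale (adjusted p = 0.0711 by the quasi-likelihood test and 0.000331 by the exact test of edgeR). For THBS4, at chr2:88729531-88780759, which encodes the matrix glycoprotein thrombospondin 4, the level was 27.2, 13.6 and 19.3 CPM in Milk and 72.8, 68.3 and 44.5 CPM in M + E2. The log2 fold change of 1.63 ± 0.28 was called by the exact test of edgeR (adjusted p = 0.000563) and not by the quasi-likelihood test (adjusted p = 0.174).

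The remaining 9 of the 12 higher genes follow. All 12 were those of smallest unadjusted p among genes at least 2-fold higher and without overlap. These 2 traits were thus conditions of the choice and not results. CPEB1, a regulator of messenger RNA polyadenylation, was at 5.04, 5.46 and 6.27 CPM in Milk and 15.0, 11.7 and 14.6 CPM in M + E2 (log2 fold change 1.29). RHBDL3, of the rhomboid protein family, was at 6.26, 5.08 and 15.0 CPM in Milk and 27.3, 22.8 and 28.4 CPM in M + E2 (1.57). SPOCD1, which acts in the silencing of transposons in germ cells, was at 2.60, 1.98 and 4.14 CPM in Milk and 10.6, 8.23 and 7.81 CPM in M + E2 (1.60). Milk 3 was the highest Milk library for all of them and still below each M + E2 library. LRP2, the endocytic receptor megalin, differed by 1.79, and SALL3, a zinc finger protein, by 2.09, but both rest on few reads, with at most 10 per Milk library. The neutral amino acid transporter SLC6A15 (1.53), the immunoglobulin family member PRTG (1.08), the myosin-binding protein MYBPC1 (1.35) and DPYSL5, of a family that acts in neurons (1.47), complete the set. The exact test of edgeR called all 12, and the quasi-likelihood test none.

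**Figure D1:**
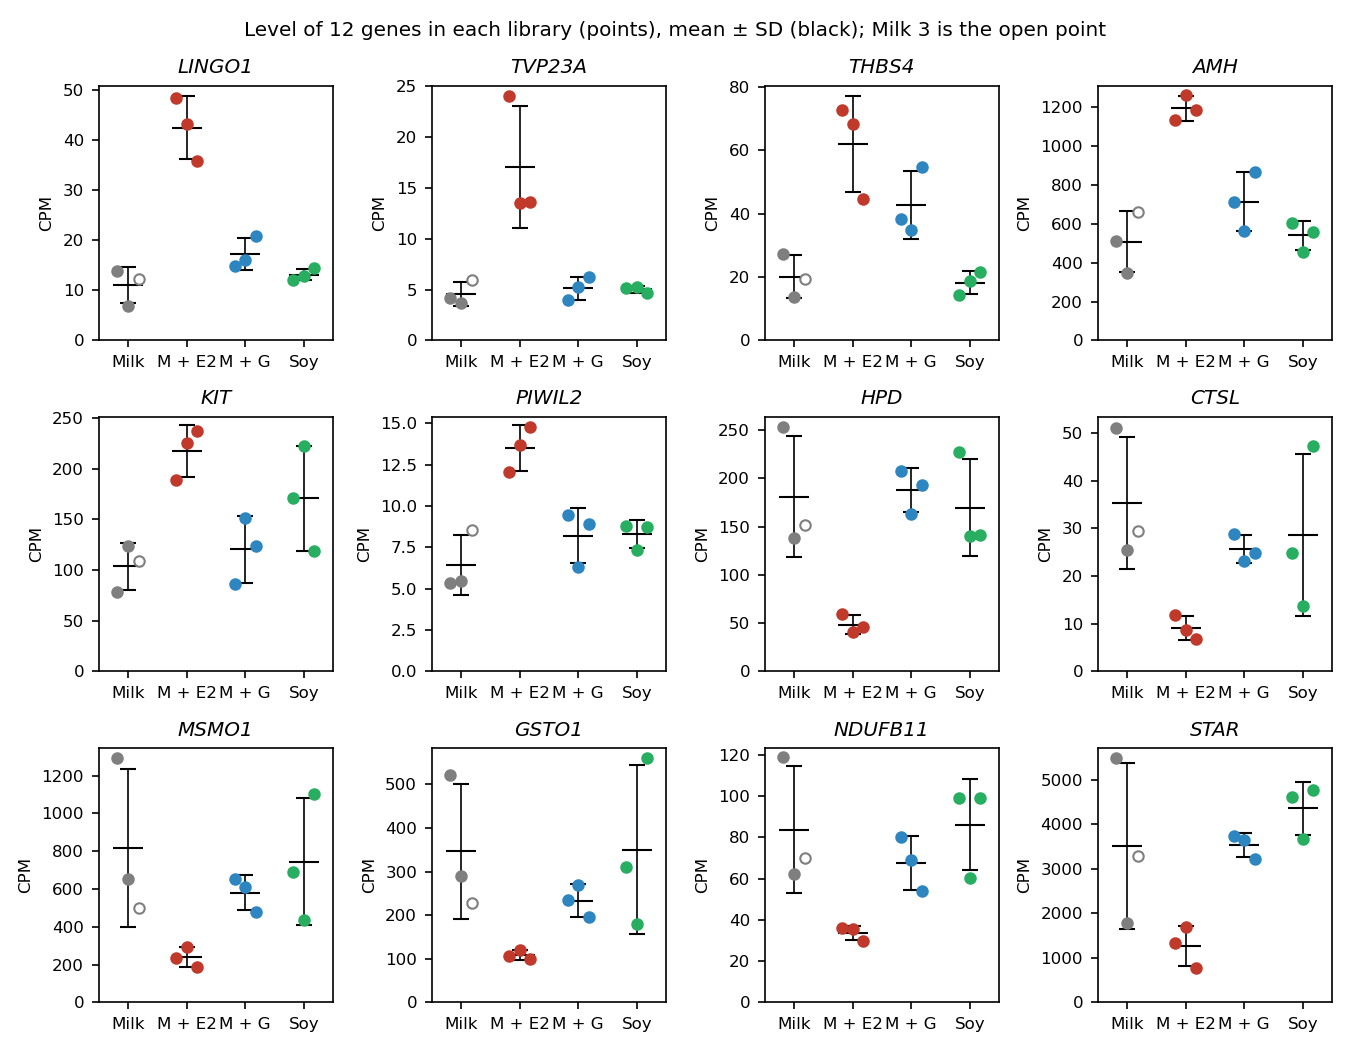
Level in CPM (vertical axes, from 0) of 12 genes in each library of Milk, M + E2, M + G and Soy, with the mean and SD in black and Milk 3 as the open point. The 3 M + E2 points lie above or below all Milk points in every panel, which was a condition for choosing most of these genes. The gap is widest for LINGO1, TVP23A and HPD. In STAR the lowest Milk library is close to the highest M + E2 library.

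The 12 lower genes were chosen in the same way, from those at least 2-fold lower and without overlap. HPD was the clearest of them. It lies at chr14:30845608-30857658 and encodes 4-hydroxyphenylpyruvate dioxygenase, an enzyme of tyrosine breakdown. Its level was 253, 138 and 152 CPM in Milk and 59.5, 40.5 and 45.8 CPM in M + E2. All Milk libraries, Milk 3 included, were more than 2-fold above every M + E2 library. The log2 fold change was −1.90 ± 0.29, or 3.72-fold lower, with an adjusted p of 0.0711 by the quasi-likelihood test and 1.01e-05 by the exact test of edgeR. CTSL, at chr10:27668523-27674705, encodes the lysosomal protease cathepsin L. It was at 51.2, 25.4 and 29.6 CPM in Milk and 11.8, 8.74 and 6.75 CPM in M + E2, without overlap (log2 fold change −1.97 ± 0.39, exact test adjusted p = 0.000103).

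MSMO1, at chr8:43726834-43745784, whose product removes methyl groups from sterols on the way to cholesterol, was at 1291, 654 and 502 CPM in Milk and 233, 295 and 189.8 CPM in M + E2. GSTO1, at chr14:115206434-115216624, a glutathione transferase of the omega class, was at 521, 290.2 and 227 CPM in Milk and 106, 121 and 99.7 CPM in M + E2. NDUFB11, at chrX:41770929-41773879, a subunit of respiratory complex I, was at 119, 62.4 and 69.9 CPM in Milk and 35.9, 35.6 and 29.5 CPM in M + E2. In each of these the groups did not overlap, and Milk 1 was the highest library. Their log2 fold changes were −1.77 ± 0.38, −1.67 ± 0.37 and −1.31 ± 0.26, all called by the exact test of edgeR (adjusted p = 0.00541, 0.00157 and 0.00677) and not by the quasi-likelihood test (adjusted p = 0.175 for each). The tetraspanin gene TSPAN12 (−1.38), the actin regulator CFL2 (−1.12), the signalling adaptor STAP2 (−2.07) and SSMEM1 (−2.75) were also called by the exact test, STAP2 on 4 to 5 reads per M + E2 library and SSMEM1 on 3 to 12. The exact test did not call the remaining 3 of the 12, GCHFR, PSPH and CHAC1 (adjusted p = 0.0531, 0.0585 and 0.0507). CHAC1, which breaks down glutathione, was at 19.6, 5.33 and 12.4 CPM in Milk and 3.92, 4.05 and 3.59 CPM in M + E2. PSPH, the last enzyme of serine synthesis, was at 9.77, 10.2 and 6.77 CPM in Milk and 3.49, 4.94 and 3.27 CPM in M + E2. Among genes known only by identifier, ENSSSCG00000049464 was called lower by the exact test of edgeR, at 24.4, 11.7 and 14.2 CPM in Milk and 5.96, 7.98 and 6.12 CPM in M + E2 (log2 fold change −1.32, adjusted p = 0.0427).

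Steroid synthesis begins with the import of cholesterol into mitochondria by STAR, after which CYP11A1 makes pregnenolone, CYP17A1 turns it towards androgens and CYP19A1, aromatase, makes estrogens. Of 18 steroidogenic genes tested, 5 were higher and 13 lower in M + E2, with a median log2 fold change of −0.58. At an unadjusted p under 0.05, 7 were lower and 1 higher, beside 10.5% and 7.23% of all genes. Without overlap 5 were lower, beside 8.79% of all genes. Without Milk 3 the median was −0.32. Summed over the list, the level was 37620, 18110 and 28540 CPM in Milk and 19040, 18450 and 16890 CPM in M + E2. Milk 2 thus lay inside the M + E2 range. STAR, at chr15:48377597-48385398, was at 5484, 1783 and 3299 CPM in Milk and 1332, 1686 and 779.7 CPM in M + E2. The groups did not overlap, although Milk 2 was only slightly above the highest M + E2 library. Its log2 fold change was −1.48 ± 0.38, 2.78-fold lower, with an adjusted p of 0.186 by the quasi-likelihood test and 0.0757 by the exact test of edgeR, and the Wald test of DESeq2 called it (adjusted p = 0.0112). CYP19A1, at chr1:120596235-120627806, was at 4703, 1796 and 3741 CPM in Milk and 2212, 1799 and 1759 CPM in M + E2, where Milk 2 lay inside the range of M + E2 (log2 fold change −0.83 ± 0.33, adjusted p = 0.24).

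The enzymes between them differed less. CYP11A1 was at 2984, 1145 and 2834 CPM in Milk and 1612, 1705 and 1164 CPM in M + E2, with overlap and a log2 fold change of −0.64 ± 0.32. For CYP17A1 the level was 8183, 3580 and 10030 CPM in Milk and 6952, 6644 and 5936 CPM in M + E2. Here the M + E2 libraries lay between the Milk libraries, and the log2 fold change of −0.16 ± 0.34 changed sign without Milk 3 (0.15). FDX1, the ferredoxin that feeds electrons to CYP11A1, was at 1753, 951 and 1062 CPM in Milk and 736, 693 and 558 CPM in M + E2, without overlap (log2 fold change −0.92). STARD4, a carrier of cholesterol in the cytosol, was called by the exact test of edgeR with a log2 fold change of −1.10 (adjusted p = 0.0492). NR5A2, a nuclear receptor that regulates steroidogenic genes, was the 1 gene that was higher at that p, at 40.9, 21.8 and 54.5 CPM in Milk and 80.4, 83.2 and 76.0 CPM in M + E2, all M + E2 libraries being the higher ones. Milk 2 had the lowest level of STAR, CYP11A1, CYP17A1 and CYP19A1 among the Milk libraries. Over all alternative settings, which include leaving out Milk 2, the log2 fold change of STAR ran from −1.794 to −1.005. That of CYP11A1 ran from −0.96 to −0.41, that of CYP17A1 from −0.48 to 0.15 and that of CYP19A1 from −1.13 to −0.53.

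Of 13 Leydig cell markers tested, 5 were higher and 8 lower, with a median of −0.16 (without Milk 2, −0.48). At an unadjusted p under 0.05, 4 were lower and 0 higher, beside 10.5% and 7.23% of all genes. INSL3, the peptide hormone of Leydig cells, was at 6124, 3827 and 5165 CPM in Milk and 3965, 2946 and 4895 CPM in M + E2. LHCGR, their receptor for luteinizing hormone, was at 192, 78.2 and 172 CPM in Milk and 189, 180.0 and 149 CPM in M + E2. Both overlapped between groups. TCF21 and VCAM1, which mark interstitial cells, were lower without overlap (−0.64 and −0.53).

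Cholesterol itself is made from acetyl units through mevalonate, squalene and a series of sterols. In this pathway and its uptake genes, 35 tested, 26 were lower and 9 higher. At an unadjusted p under 0.05, 15 were lower and 1 higher, beside 10.5% and 7.23% of all genes. The median was −0.53, and −0.50 without Milk 3. Summed over the list, the level was 11870, 5766 and 11360 CPM in Milk and 7158, 7628 and 5133 CPM in M + E2. Milk 2 thus lay inside the M + E2 range. The genes that were lower without overlap numbered 11, beside 8.79% of all genes, and ran the length of the pathway. They include HMGCS1, an early step, at 1458, 778 and 905 CPM in Milk and 534, 579 and 406 CPM in M + E2 (log2 fold change −1.05). IDI1, the isoprenoid isomerase, was at 1250, 578 and 618 CPM in Milk and 323, 382 and 219 CPM in M + E2 (−1.40). FDPS, which joins isoprenoid units, was at 34.8, 14.5 and 24.7 CPM in Milk and 12.2, 12.9 and 6.54 CPM in M + E2 (−1.23). With MSMO1 and STARD4, IDI1 was called by the exact test of edgeR (adjusted p = 0.0427). This makes 3 of 35 called lower and 0 higher, beside 0.304% and 0.332% of all genes. SCARB1, a receptor for cholesterol-carrying lipoproteins, had a log2 fold change of −0.35 ± 0.41. The cholesterol exporter ABCA1 was higher without overlap, at 25.5, 26.0 and 46.7 CPM in Milk and 60.3, 51.9 and 56.0 CPM in M + E2 (0.77).

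**Figure D2:**
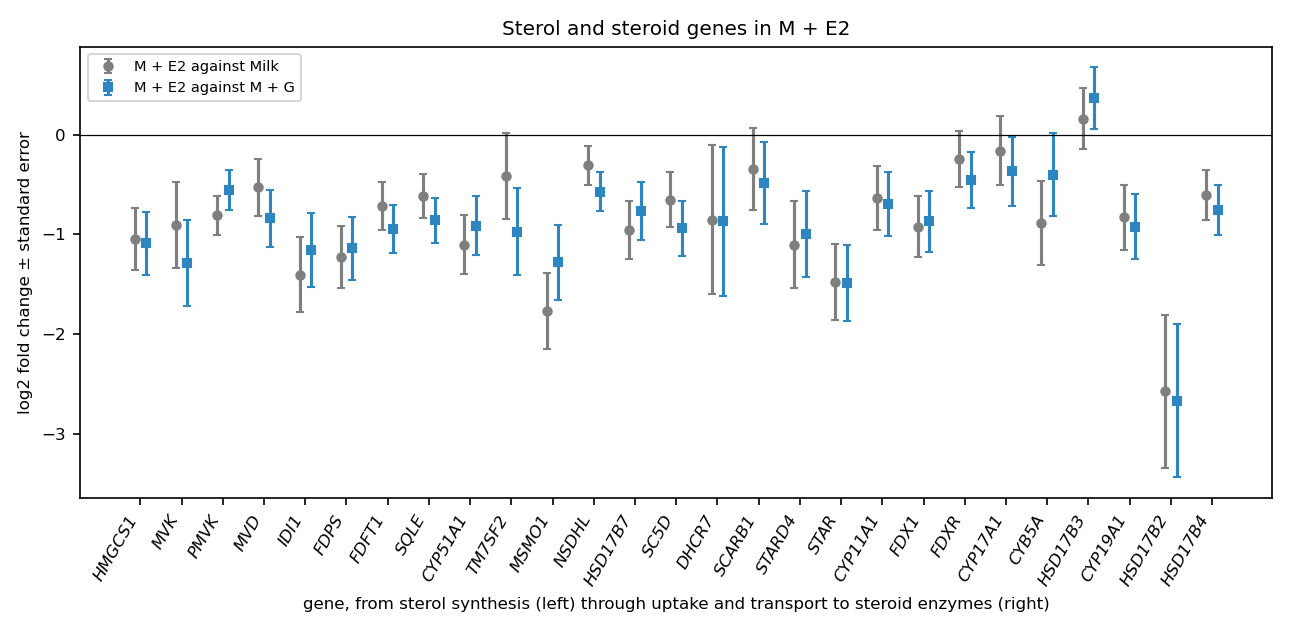
Log2 fold change with its standard error (vertical axis) of 27 genes placed in rough pathway order from sterol synthesis through uptake and transport to steroid enzymes, for M + E2 against Milk (grey) and against M + G (blue). Most points of both series lie below 0, among them MSMO1 at −1.77 and −1.28 and STAR at −1.48 in both, while TM7SF2, SCARB1, FDXR, CYP17A1 and HSD17B3 lie within 1 standard error of 0 in the comparison with Milk.

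Genes that act on estrogens were mostly lower. Of 12 tested, 11 were lower and 1 higher, with a median of −0.68. Among them 5 were lower at an unadjusted p under 0.05, beside 10.5% of all genes. HSD17B2, which inactivates estradiol to estrone, was at 152, 18.6 and 71.3 CPM in Milk and 15.1, 23.8 and 1.79 CPM in M + E2. The libraries overlapped because Milk 2 was low, and M + E2 3 was far below all others. HSD17B12, which can reduce estrone and also elongates fatty acids, was at 223, 189.6 and 115 CPM in Milk and 89.8, 95.5 and 103 CPM in M + E2, without overlap (log2 fold change −0.87). SULT1E1, the estrogen sulfotransferase, was high in Milk 2 only, at 1.07, 28.1 and 0.501 CPM in Milk and 0.436, 0.253 and 3.80 CPM in M + E2.

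The estrogen receptors and genes known as estrogen targets in other tissues showed no common direction. Of 25 tested, 12 were higher and 13 lower. The exact test called 0 of them, beside 0.636% of all genes, a share at which a list of this size would seldom hold a call. At an unadjusted p under 0.05, 3 were higher and 1 lower, beside 7.23% and 10.5% of all genes. The median was −0.12, beside −0.03 for all genes, and its sign differed between settings. ESR1 was at 11.8, 8.31 and 17.3 CPM in Milk and 16.1, 15.0 and 21.1 CPM in M + E2 and ESR2 at 0.611, 0.62 and 0.752 CPM in Milk and 0.872, 1.14 and 1.58 CPM in M + E2. ESR2 did not overlap but rests on a level near the floor. The progesterone receptor PGR, a standard estrogen target, was at 3.97, 1.74 and 3.01 CPM in Milk and 2.18, 2.53 and 2.74 CPM in M + E2. GREB1, another, was at 24.9, 17.5 and 20.3 CPM in Milk and 19.8, 19.3 and 39.3 CPM in M + E2, where M + E2 3 alone was high. Neither was separated between the groups (log2 fold changes −0.21 and 0.33). LTF, the lactoferrin gene, had the largest value of the list (2.23), which came from M + E2 3 alone at 0.727, 1.27 and 5.48 CPM in the 3 M + E2 libraries.

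Sertoli cell markers were the group with the most separated higher genes. Of 24 tested, 20 were higher and 4 lower, with a median of 0.41 (0.47 without Milk 3). At an unadjusted p under 0.05, 8 were higher and 2 lower, beside 7.23% and 10.5% of all genes. Without overlap 10 were higher and none lower, beside 8.78% and 8.79% of all genes. AMH, at chr2:76415564-76418315, was at 509, 349 and 662 CPM in Milk and 1133, 1262 and 1183 CPM in M + E2. The lowest M + E2 library was well above Milk 3, the highest Milk library. The log2 fold change of 1.24 ± 0.28, 2.35-fold, was called by the exact test of edgeR (adjusted p = 0.0152) and not by the quasi-likelihood test (adjusted p = 0.175, or 0.0195 without Milk 3). AMH is a product of immature Sertoli cells and normally declines as they mature.

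Other markers of these cells were higher by smaller amounts. The transcription factor WT1 was at 55.3, 41.3 and 69.4 CPM in Milk and 88.5, 86.9 and 94.7 CPM in M + E2 (log2 fold change 0.70). SOX9, the testis-determining factor of Sertoli cells, was at 68.1, 36.2 and 104 CPM in Milk and 139.8, 145 and 120.1 CPM in M + E2 (0.96), and the receptor for follicle-stimulating hormone FSHR at 64.4, 26.3 and 67.5 CPM in Milk and 115, 99.1 and 103 CPM in M + E2 (1.00). In all 3 genes every M + E2 library was above every Milk library, and no test of edgeR called them with all libraries. GDNF, the growth factor that Sertoli cells offer to spermatogonia, was at 1.37, 1.98 and 1.63 CPM in Milk and 3.20, 2.91 and 4.11 CPM in M + E2 (1.03). The marker sum in CPM does not show this pattern, since DHRS4, listed as a marker and the most abundant of them, was at 16460, 7678 and 12130 CPM in Milk and 6134, 8966 and 6127 CPM in M + E2. KITLG, the ligand of KIT, was also among the lower markers (−0.37, with overlap).

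Germ cell markers were higher in M + E2 in most cases. Of 17 tested, 13 were higher and 4 lower, with a median of 0.60 (0.53 without Milk 3). Among them 7 were higher and 1 lower at an unadjusted p under 0.05, beside 7.23% and 10.5% of all genes. The summed level of these markers was 241 to 350.4 CPM in the Milk libraries and 425.1 to 475.5 CPM in the M + E2 libraries, without overlap. A large part of this sum, and of its difference, came from KIT, and a sum without KIT was not computed. KIT, at chr8:41402334-41492306, the receptor tyrosine kinase of differentiating spermatogonia that is also present on Leydig and mast cells, was at 78.2, 123 and 109 CPM in Milk and 189, 226 and 238 CPM in M + E2. All M + E2 libraries were higher, and the log2 fold change of 1.07 ± 0.26 was called by the exact test of edgeR (adjusted p = 0.0152) and not by the quasi-likelihood test (adjusted p = 0.186). PIWIL2, which binds small RNAs that silence transposons in germ cells, was at 5.35, 5.46 and 8.52 CPM in Milk and 12.1, 13.7 and 14.8 CPM in M + E2 (1.06, exact test adjusted p = 0.0507). FGFR3, a receptor on spermatogonia, was at 11.8, 10.5 and 15.0 CPM in Milk and 19.8, 27.2 and 19.7 CPM in M + E2 (0.84).

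Not all germ cell genes followed. DDX4, an RNA helicase that defines the germ line, was at 3.21, 6.45 and 3.76 CPM in Milk and 5.23, 4.81 and 7.07 CPM in M + E2. GFRA1, the GDNF co-receptor of spermatogonial stem cells, was at 9.62, 15.6 and 9.77 CPM in Milk and 11.6, 12.03 and 11.07 CPM in M + E2. UCHL1, a spermatogonial protein in the pig, was at 10.7, 14.8 and 6.64 CPM in Milk and 9.30, 10.8 and 9.28 CPM in M + E2. These 3 genes overlapped between the groups and differed by at most 0.35 on the log2 scale. ID4, also on the list and called lower by the exact test of edgeR (log2 fold change −2.37, adjusted p = 0.0406), was at 22.6, 76.1 and 10.2 CPM in Milk and 5.67, 7.73 and 7.59 CPM in M + E2, and its high value in Milk 2 went with the myoid markers of that library.

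Among genes that set ovary or testis fate, 13 of 20 were higher and 7 lower, with a median of 0.07. At an unadjusted p under 0.05, 6 were higher and 1 lower, beside 7.23% and 10.5% of all genes. The 6 higher genes were WT1 and SOX9, described above, the kinase gene MAP3K4 (0.61, with overlap), DMRT1, a transcription factor that keeps the testis fate (0.63), CBX2, a Polycomb protein (0.59), and ZNRF3, an inhibitor of Wnt signalling (0.58). FOXL2, the ovarian transcription factor, did not pass the filter, and its reads were 1, 0 and 1 in Milk and 3, 3 and 7 in M + E2. M + G had 0 reads in all 3 libraries and Soy 0, 0 and 3. With so few reads no fold change is given.

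In the inhibin, activin and BMP pathway, 13 of 27 genes were higher and 14 lower (median −0.04). At an unadjusted p under 0.05, 4 were higher and 5 lower, beside 7.23% and 10.5% of all genes. INHBA, a subunit of activin A, was at 100.2, 74.3 and 159 CPM in Milk and 184, 159 and 187 CPM in M + E2, where M + E2 2 and Milk 3 were level (log2 fold change 0.67). INHA, the inhibin subunit, was at 1147, 687 and 1066 CPM in Milk and 1314, 1221 and 1179 CPM in M + E2 (0.36). On the lower side stood BMP4 (−1.30) and the BMP target genes ID1 (−0.86) and ID3 (−0.88), whose levels were highest in Milk 2. Genes of the blood-testis barrier, the junctions between Sertoli cells, were higher in 13 of 21 cases and lower in 8 (median 0.16). Of these, 4 higher and 1 lower had an unadjusted p under 0.05, beside 7.23% and 10.5% of all genes. ESPN, an actin bundler of Sertoli cell junctions, was at 39.4, 16.0 and 45.4 CPM in Milk and 91.9, 101 and 67.9 CPM in M + E2 and was called by the exact test of edgeR (1.37, adjusted p = 0.0423). The junction protein TJP1 was higher without overlap (0.61).

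Hedgehog signals pass from Sertoli cells to the interstitium, and retinoids act on Sertoli and germ cells. Over both pathways 17 of 29 genes were higher and 12 lower (median 0.24). Of these, 7 higher and 2 lower had an unadjusted p under 0.05, beside 7.23% and 10.5% of all genes. PTCH1, a hedgehog receptor and target, was at 60.8, 43.5 and 118 CPM in Milk and 132, 137 and 122 CPM in M + E2 (0.81), where Milk 3 was close to M + E2. CYP26B1, which degrades retinoic acid, was at 33.6, 17.4 and 41.2 CPM in Milk and 68.0, 58.9 and 61.0 CPM in M + E2 (1.03). RDH10, which makes its precursor, was lower, at 21.1, 22.2 and 26.2 CPM in Milk and 15.3, 13.9 and 18.98 CPM in M + E2 (−0.53), and in both genes the groups did not overlap.

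**Figure D3:**
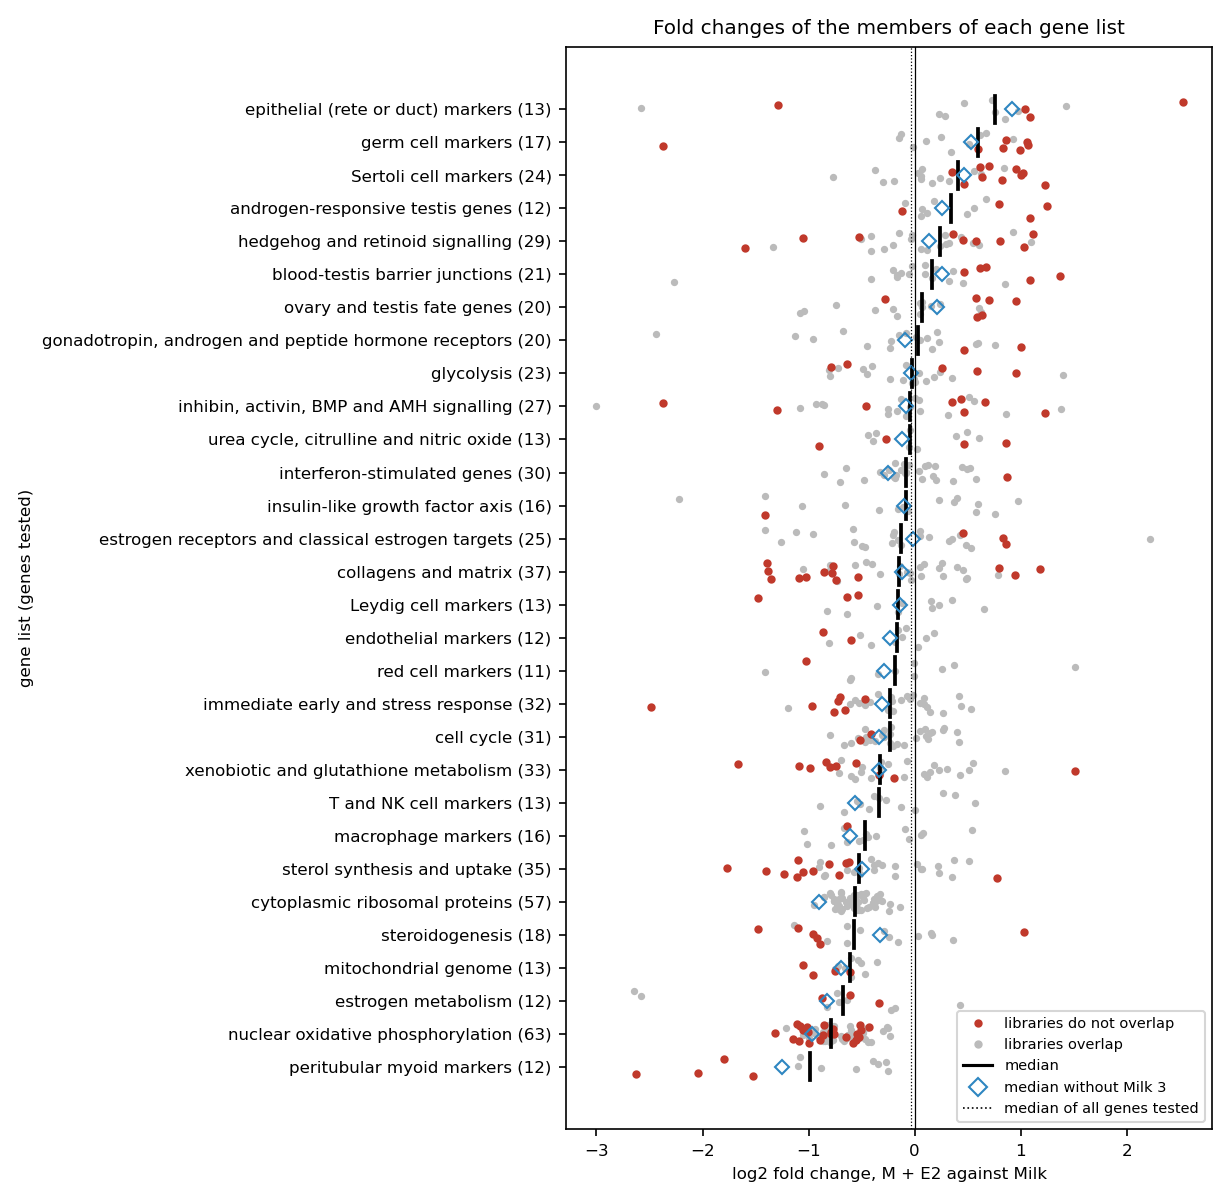
Log2 fold change of M + E2 against Milk (horizontal axis) for the members of 30 gene lists, 1 point per tested gene, in red where the 3 M + E2 and 3 Milk libraries do not overlap, with the list's median (black bar), the median without Milk 3 (blue diamond) and the median of all genes (dotted line at −0.03). All 63 genes of nuclear oxidative phosphorylation lie left of 0, and epithelial, germ cell and Sertoli cell markers have the highest medians (0.76, 0.60 and 0.41).

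Every nuclear gene of oxidative phosphorylation that was tested was lower in M + E2. These 63 genes encode the 4 respiratory complexes and ATP synthase, and their median log2 fold change was −0.79 (−0.97 without Milk 3). At an unadjusted p under 0.05, 46 were lower and 0 higher, where the share of all genes lower at that p was 10.5%. Without overlap 24 were lower, beside 8.79% of all genes. Only NDUFB11 was called by the exact test of edgeR, beside 0.304% of all genes called lower. The quasi-likelihood test without Milk 3 called 27 lower, beside 3.30% of all genes. NDUFA6 of complex I was at 45.1, 34.7 and 32.0 CPM in Milk and 23.6, 19.8 and 17.9 CPM in M + E2 (−0.87). COX6A1, of cytochrome oxidase, was at 869, 566 and 381 CPM in Milk and 267, 266 and 288 CPM in M + E2 (−1.15). ATP5MC3, of ATP synthase, was at 385, 242 and 198 CPM in Milk and 117, 132 and 140.0 CPM in M + E2 (−1.09). Milk 3 was the lowest Milk library for these 3 genes and Milk 1 the highest. Summed over the list, the level was 12520, 10020 and 6958 CPM in Milk 1, 2 and 3 against 5439, 6222 and 6070 CPM in M + E2.

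The 13 protein genes of the mitochondrial genome were likewise all lower, with a median of −0.61. Of these, 5 had an unadjusted p under 0.05 and 4 were without overlap, beside 10.5% and 8.79% of all genes lower. ND3, of complex I, was at 2009, 1105 and 1157 CPM in Milk and 765, 577 and 724 CPM in M + E2 (−1.05). CYTB, of complex III, was at 8023, 3628 and 5704 CPM in Milk and 3841, 3408 and 3048 CPM in M + E2, with overlap (−0.75). Here Milk 2, not Milk 3, was the lowest Milk library.

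Cytoplasmic ribosomal protein genes were all lower too, 57 of 57, with a median of −0.56. But 3 of them had an unadjusted p under 0.05 and 0 were without overlap, beside 10.5% and 8.79% of all genes lower. The sum of the 57 was 70790, 71260 and 30600 CPM in Milk 1, 2 and 3 against 31790, 38190 and 47870 CPM in M + E2. Milk 1 and Milk 2 were the high libraries, and Milk 3 was below every M + E2 library. RPL21, for instance, was at 699, 689.6 and 302 CPM in Milk and 331, 276 and 397 CPM in M + E2. These genes have many near-identical copies, among which the counting may have split reads.

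Glutathione and drug-metabolizing enzymes were lower in 22 of 33 cases and higher in 11 (median −0.32). Of these, 7 lower and 2 higher had an unadjusted p under 0.05, beside 10.5% and 7.23% of all genes. Besides GSTO1, the lower genes without overlap included the peroxidase GPX1, at 214, 245 and 140.3 CPM in Milk and 102, 112 and 88.6 CPM in M + E2 (−0.98), glutathione reductase GSR (−0.74) and the transferase GSTA1 (−1.09). The oxygenase FMO1 was the higher exception, at 117, 51.1 and 95.9 CPM in Milk and 174, 118 and 459.7 CPM in M + E2, where M + E2 3 carried most of the difference. TFRC, the transferrin receptor that brings iron into cells, was at 333, 195 and 149 CPM in Milk and 117, 121 and 93.9 CPM in M + E2, without overlap (−1.03).

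Markers of other cells of the testis were examined in the same way. All 12 peritubular myoid markers were lower, with a median of −0.98. Of the 12, 2 had an unadjusted p under 0.05 and 4 were without overlap, beside 10.5% and 8.79% of all genes lower. The sum of the 12 was 1541, 4481 and 1315 CPM in Milk and 813.8, 1167 and 1028 CPM in M + E2. Without Milk 2 their median was −0.17. TAGLN, an actin-binding protein of smooth muscle, was at 381, 1019 and 252 CPM in Milk and 124, 177 and 174 CPM in M + E2 and was called by the exact test of edgeR (adjusted p = 0.0449). Macrophage markers were lower in 13 of 16 cases (median −0.47, or −0.09 without Milk 2), with a sum of 1647 to 3022 CPM in Milk and 1541 to 1898 CPM in M + E2. Endothelial markers had a median of −0.17, 9 of 12 being lower. Red cell markers, 8 of 11 lower, summed to 1789, 1750 and 583.1 CPM in Milk against 407.4 to 774.4 CPM in M + E2, mostly from HBB, the β-globin gene, at 1371, 1464 and 358 CPM in Milk and 232, 572 and 394 CPM in M + E2. LYZ of macrophages and CD3G of T cells were at 0 reads in all 6 libraries. The part of these cell types in the other results was not tested.

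**Figure D4:**
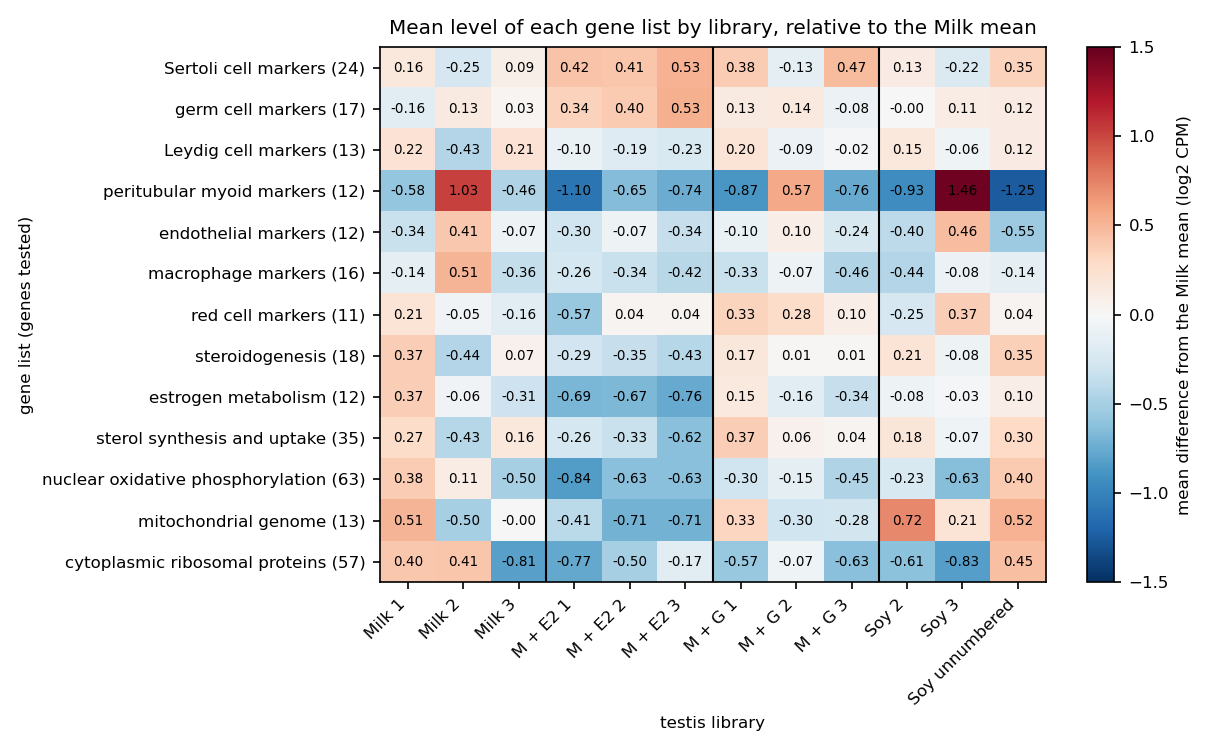
Mean level of the tested members of 13 gene lists (rows, with their number) in each library (columns), as the difference from the Milk mean in log2 CPM, red above and blue below. Sertoli and germ cell markers are above the Milk mean in all 3 M + E2 libraries by 0.34 to 0.53, and steroidogenic and sterol genes are below it. M + G 1 and M + G 3 are also high for Sertoli cell markers (0.38 and 0.47). So are Sow 3 and the unnumbered Sow library, which are not drawn (0.456 and 0.363). For germ cell markers these Sow libraries are at 0.0636 and 0.283. Milk 2 is also low for steroidogenic and sterol genes (−0.44 and −0.43) and high for myoid markers (1.03). Milk 3 is below all M + E2 libraries in ribosomal protein genes (−0.81, against −0.77, −0.50 and −0.175).

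Epithelial markers of ducts or rete had a median of 0.76, 11 of 13 higher, but most were near the floor. KRT8, by far the highest of them in reads, was lower, at 178, 128 and 183 CPM in Milk and 65.1, 85.1 and 50.2 CPM in M + E2, and was called by the exact test of edgeR (−1.29, adjusted p = 0.00496). KRT8 is a keratin of immature Sertoli cells as well as of epithelia.

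Whether a difference was particular to estradiol was asked by setting M + E2 against M + G. Both are the same formula with an addition, so this contrast equals the difference between the effect of estradiol and that of genistein, each against Milk. Its fold changes do not use the levels in Milk, while its p-values share an estimate of the spread with all 14 libraries of the fit. The quasi-likelihood test called 0 of 15634 genes (0%; lowest adjusted p = 0.159). At an unadjusted p under 0.05 it found 1096 (7.01%), 467 higher in M + E2 (2.99%) and 629 lower (4.02%), and by sign 47.8% were higher and 52.2% lower. The exact test of edgeR called 100 of 14691 genes (0.681%), 44 higher (0.300%) and 56 lower (0.381%).

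The genes below were chosen for their difference from Milk, and both contrasts use the same M + E2 libraries, so a difference in the same direction is not independent of that choice. HPD was also lower than in M + G, which had 208, 163 and 193 CPM, all far above M + E2. The log2 fold change was −1.95 ± 0.29 (unadjusted p = 1.02e-05 by the quasi-likelihood test). TVP23A, at 3.93, 5.23 and 6.19 CPM in M + G, differed by 1.73 ± 0.27, and LINGO1, at 14.9, 16.0 and 20.8 CPM, by 1.29 ± 0.27. None of these M + G libraries reached the range of M + E2. ASL, which splits argininosuccinate in the urea cycle and in arginine synthesis, was at 89.5, 78.7 and 68.2 CPM in Milk and 40.3, 40.5 and 45.5 CPM in M + E2 and at 85.9, 81.7 and 83.5 CPM in M + G, a difference from M + G of −0.99 ± 0.20. THBS4 was less distinct, at 38.4, 34.8 and 54.8 CPM in M + G, with overlap (0.54 ± 0.27). STAR was at 3745, 3643 and 3232 CPM in M + G, above every M + E2 library (−1.48 ± 0.38, unadjusted p = 0.00175 by the quasi-likelihood test), and the Wald test of DESeq2 called it. AMH was at 712, 564 and 866 CPM in M + G, below every M + E2 library (0.74 ± 0.27, unadjusted p = 0.0173), and KIT at 86.3, 152 and 124 CPM (0.85 ± 0.25).

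Gene lists gave the same contrast in counts. Of the 35 sterol genes, 30 were lower than in M + G and 5 higher, 19 and 1 of them at an unadjusted p under 0.05, beside 4.02% and 2.99% of all genes, and the median was −0.63. SOAT1, which stores cholesterol as esters, was at 465, 317 and 419 CPM in M + G against 201, 154 and 110.2 CPM in M + E2 (−1.37). Germ cell markers were higher than in M + G in 15 of 17 cases, 6 at an unadjusted p under 0.05 and 0 lower (median 0.40). Sertoli cell markers were higher in 17 of 24 cases, 2 at an unadjusted p under 0.05, with a median of 0.19. All 63 nuclear respiratory genes were lower than in M + G, with a median of −0.39 and 10 at an unadjusted p under 0.05. For these genes M + G itself had a median of −0.36 against Milk, and Soy of −0.14. Their sum was 8374, 6078 and 12550 CPM in Soy, so that Soy 3 lay within the M + E2 range. Ribosomal protein genes had a median of −0.04 against M + G, with 0 at an unadjusted p under 0.05. The difference seen against Milk 1 and Milk 2 was thus not seen against M + G.

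Epithelial markers turned the other way, 12 of 13 being lower than in M + G, with a median of −1.55. EPCAM, an adhesion molecule of epithelia, was at 2.75, 22.1 and 4.61 CPM in M + G and at 0.727, 0.253 and 1.06 CPM in M + E2 (−3.81 ± 0.80), and in Milk it was at 0.611, 0.372 and 0.251 CPM. These values show the M + G libraries as the high ones.

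For the clearest genes the values of all additions to or replacements of the formula, which share the Milk libraries as control, can be set side by side. The log2 fold change against Milk was 1.94 with estradiol, 0.65 with genistein and 0.25 on soy formula for LINGO1. It was −1.90, 0.06 and −0.09 for HPD, −1.48, 0.01 and 0.31 for STAR, 1.24, 0.50 and 0.09 for AMH, and 1.07, 0.22 and 0.72 for KIT. For KIT the soy libraries, at 171.5, 223 and 119 CPM, reached the range of M + E2.

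Other genes that the study's text names for this diet were looked up. GZMA_2, a row for the protease granzyme A of killer lymphocytes, had 7, 12 and 1 reads in Milk and 0, 0 and 2 in M + E2. Milk 3 lay within the M + E2 range, and M + E2 was at or under the floor of 3 reads, so no fold change is given. GZMA_1, a second row for this protease, had 4, 2 and 0 reads in Milk and 2, 0 and 1 in M + E2 and did not pass the filter. Of the genes named by identifier, ENSSSCG00000046393 had 0 reads in all 6 libraries, and ENSSSCG00000003503, also under the filter, had 0, 2 and 4 reads in Milk and 8, 5 and 8 in M + E2. LECT2, a secreted factor of liver origin, was at 2.14, 0.992 and 1.504 CPM in Milk and 0.872, 1.27 and 1.48 CPM in M + E2, with overlap (−0.32 ± 0.38).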

How the data were processed

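Testis libraries of 15 piglets were grouped by the diet in their labels, with 3 libraries per group. The authors trimmed the reads and mapped and counted them with the CLC Genomics Workbench, and the deposited table holds raw counts per Ensembl gene and library, not normalized. The methods map reads first to a curated porcine gene library and the rest to the pig genome, build 11.1. Which step gave these counts is not given in the sources used here. Symbols came from the table (16446 genes) and from an identifier table (798 more), and positions from RefSeq Sscrofa11.1 by symbol, for 79.1% of tested genes.

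The tools were R 4.3.3, DESeq2 1.42.0, limma 3.58.1 and edgeR 4.0.16. Genes were kept by filterByExpr (minimum count 10), scaled by TMM and fitted with edgeR's quasi-likelihood test in 1 model of 5 groups and 14 libraries. Sow 2 was left out, as in the methods. CPM are reads over the TMM-scaled library size, and fold changes come from the fit. P-values measure the spread between these piglets only. Scripts were tested on simulated data. Alternatives were edgeR's exact test, limma-voom, DESeq2, other scalings, filters and sample sets, and each library left out in turn.

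Named genes were the 12 higher and 12 lower genes with a symbol and the smallest unadjusted p among those at least 2-fold different and not overlapping, since no gene was called, then the genes that the study's text names for this diet, and up to 4 members with the smallest p from each of 30 gene lists. A few other list members are named for their known roles and were chosen with their values seen. The comparison and the lists, written from general knowledge, were chosen with earlier results of these data known. Of 775 distinct listed genes, 681 are in the table by symbol and 647 were tested; lists were described by counts and medians, without a test. A few list members are not reported here by name. The number of unused columns was 0.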

Additional observations from a re-analysis of the deposited data

How the results depend on the processing

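For M + E2 against Milk, 0 genes were called by the quasi-likelihood test with the 2 groups alone, all 15 libraries, the 3 groups on cow's milk formula, at least 10 reads in every library, DESeq2 size factors or adjusted p alone. There were 3 calls with the replicate block (HPD, CTSL and ENSSSCG00000018076), 6 with no filter, 4 with library totals only (LINGO1, HOMER2, TVP23A and THBS4), 1 with limma-voom (LINGO1), 92 with edgeR's exact test and 122 with DESeq2's Wald test. The replicate numbers mark no shared litter or batch in the labels, and whether such a share lies behind them was not tested. The deviations of same-numbered Milk and M + E2 libraries from their group means correlated at −0.0587, −0.09 and −0.323 over genes. Same-numbered Milk and M + G libraries correlated at 0.231, 0.492 and 0.413, and with the block, chosen here after seeing the data, M + G against Milk gave 399 genes at an unadjusted p under 0.05, against 362 without it in the same 3 groups and 406 in the fit of 5 groups. Library totals moved the median of all genes from −0.03 to 0.17. With each library left out in turn the calls ran from 0 to 1256, the latter without Milk 3 and 0 without any other. The exact test without 1 library, chosen after seeing the data, gave from 11 (without M + E2 3) to 1722 calls (without Milk 3), with 23 without Milk 1, 120 without Milk 2, 16 without M + E2 1 and 29 without M + E2 2. The cause of these differences between tests was not tested. For M + E2 against M + G there was 1 call with the 2 groups alone and 1 with the replicate block (HPD in both), 2 with no filter (HPD and TVP23A), 16 with DESeq2's Wald test and 100 with edgeR's exact test, and from 0 to 0 with each library left out.

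Of 137 named genes, 70 were called in some setting, 68 of them without Milk 3, and 3 changed sign. Over all genes 8.04% were called without Milk 3. Most named genes were chosen for a small p in these same data, so a larger share of calls follows from the choice. CYP17A1 had a log2 fold change of 0.041 with library totals only and of −0.48 to 0.15 with each library left out. Without Milk 2, PAPPA2 was at 0.18 (range −2.72 to 0.18) and IFI6 at 0.023 (range −1.23 to 0.023). Of 240 medians of gene lists recomputed, 38 moved by more than the spread, and the medians of 13 of the 30 lists changed sign in at least 1 setting (Leydig, endothelial, red cell, T and NK cell, estrogen target, hormone receptor, inhibin and activin, gonad fate, insulin-like growth factor, interferon, matrix, urea cycle and glycolysis). Depth limits the genes with few reads (FOXL2, GZMA_1 and GZMA_2 are given as reads, and SALL3 has at most 10 reads per Milk library behind its fold change).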

Other observations

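Of 23 glycolytic genes, 10 were higher and 13 lower in M + E2 (median −0.02), 2 and 4 at an unadjusted p under 0.05 by the quasi-likelihood test, beside 7.23% and 10.5% of all genes. PFKM, a phosphofructokinase, was at 27.3, 26.9 and 36.0 CPM in Milk and 45.6, 42.6 and 47.3 CPM in M + E2, and PFKFB3, which makes its activator, at 36.0, 24.9 and 57.3 CPM in Milk and 73.1, 82.8 and 74.2 CPM in M + E2, both higher without overlap. TPI1, triose phosphate isomerase, was at 418, 328 and 275 CPM in Milk and 212, 234 and 209 CPM in M + E2, and the lactate carrier SLC16A1 at 111, 101 and 63.3 CPM in Milk and 49.4, 51.4 and 58.1 CPM in M + E2, both lower without overlap. Neither test of edgeR called any of these genes with all 6 libraries.

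Of 37 collagen and matrix genes 23 were lower (median −0.15), while genes of the basement membrane were among those that were higher. The laminin chain LAMA1 was at 183, 95.0 and 415 CPM in Milk and 509.9, 507 and 551 CPM in M + E2 and LAMB1 at 193, 179 and 306 CPM in Milk and 422, 369 and 387 CPM in M + E2, higher without overlap, with Milk 3 the nearest Milk library (log2 fold changes 1.18 and 0.80). COL14A1, a collagen of fibrous tissue, was at 166, 358 and 97.4 CPM in Milk and 68.5, 81.6 and 94.0 CPM in M + E2, lower without overlap, and highest in Milk 2.

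Growth factor receptors were among the genes in which Milk 3 resembled M + E2. IGF1R was at 32.4, 29.8 and 84.5 CPM in Milk and 86.3, 77.6 and 84.6 CPM in M + E2, INSR at 44.3, 31.2 and 75.4 CPM in Milk and 84.7, 71.7 and 72.8 CPM in M + E2 and their adaptor IRS2 at 8.25, 4.34 and 23.4 CPM in Milk and 27.2, 23.6 and 20.7 CPM in M + E2. In all 3 genes Milk 3 overlapped M + E2, and the quasi-likelihood test of edgeR called them only without Milk 3 (adjusted p = 0.0195, 0.0214 and 0.0195). Over the 16 genes of the insulin-like growth factor axis the median was −0.08.

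Immediate early genes were lower in 23 of 32 cases (median −0.23), 6 at an unadjusted p under 0.05, beside 10.5% of all genes. FOSB was highest in Milk 2, at 2.29, 11.7 and 1.38 CPM in Milk and 0.872, 0.887 and 0.949 CPM in M + E2. Interferon-stimulated genes had a median of −0.08, 13 of 30 being higher. HERC5, a ubiquitin-like ligase of that response, was at 5.497, 6.94 and 8.90 CPM in Milk and 14.1, 13.3 and 11.8 CPM in M + E2, and IFI6 at 57.6, 159 and 33.6 CPM in Milk and 61.2, 37.9 and 39.8 CPM in M + E2, where Milk 2 alone was high. Cell cycle genes were lower in 20 of 31 cases (median −0.23), 1 at an unadjusted p under 0.05, beside 10.5% of all genes. Genes known to respond to androgens in the testis were higher in 10 of 12 cases (median 0.34), led by PCSK4, a protease of germ cells, at 0.458, 0.248 and 1.13 CPM in Milk and 1.74, 1.14 and 1.58 CPM in M + E2, which is few reads per library. Hormone receptors (11 of 20 higher), urea cycle genes (6 of 13 higher) and T and NK cell markers (4 of 13 higher) had medians of 0.03, −0.04 and −0.33.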
